A study of Mus musculus with 9 samples.

Results

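The genes that end the light response of photoreceptors were followed here as a set of 10. They are the arrestin genes Sag and Arr3, the visual pigment kinase gene Grk1, its calcium sensor Rcvrn, the genes Rgs9, Gnb5 and Rgs9bp of the RGS9 complex, the phosducin gene Pdc, and the guanylate cyclase activator genes Guca1a and Guca1b. They were listed by name and chosen by function, but also with measured values in view. Sag and Arr3 were known to be higher and Pdc lower in ONC against Ctrl. Calls of members in that contrast, kept or lost, are therefore description and not support. All 10 were among the 24772 entries of the gene table, and all 10 passed the filter on low counts that left 15841 genes for testing. The libraries were made from cells sorted as retinal ganglion cells from mouse retinas, with 3 libraries in each group. The Ctrl group was intact and wild type. The ONC group was wild type and taken 3 days after optic nerve crush, which cuts the axons of ganglion cells. The CKO group was also taken 3 days after crush. Its amacrine cells, inhibitory interneurons of the inner retina, carried a conditional knockout of ZnT3, a zinc transporter encoded by Slc30a3. There was no intact CKO group. The driver of the knockout, the age of the mice and the number of animals behind a library were not given in the labels. The p-values therefore describe spread among libraries that could be partly or wholly technical.

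In a photoreceptor, a light-activated visual pigment switches on transducin, transducin switches on a phosphodiesterase, and the fall in cyclic GMP closes cation channels. Shutoff reverses each step. The kinase, which recoverin restrains while calcium is high, phosphorylates the pigment, and arrestin then caps it. The RGS9 complex speeds the return of transducin to its resting state, phosducin binds the transducin beta-gamma subunits, and the cyclase activators drive cyclic GMP synthesis when calcium falls.

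The sorted material was rich in photoreceptor transcripts and poor in those of ganglion cells. Counts of 12 rod markers made up 3.08% to 5.89% of a library, while those of 10 ganglion cell markers made up 0.00414% to 0.0149%. Over the 9 libraries the ganglion cell genes Rbpms, Pou4f1 and Pou4f2 averaged 3.05, 0.808 and 0.285 CPM (counts scaled to the library total). The highest of the 10 markers were Nefl at 23.0 and Sncg at 16.4 CPM, and Sncg reached 71.1 CPM in Ctrl replicate 3. The label of the cells was thus not borne out by Rbpms, Pou4f1 and Pou4f2 or by the summed markers. Slc30a3 had 0 to 16 counts in every library and gave no check of the genotype. Total counts ran from 14166996 to 25571715 per library. In ONC the libraries, which the table numbers 3, 5 and 6 without a match to the labelled replicates, were unequal. The variance between columns 3 and 6 was 3.21 times that of counting alone, against 46.7 between columns 3 and 5, 43.0 between columns 5 and 6, and 11.5 to 15.2 between libraries within Ctrl and within CKO. The ONC levels of the members are therefore given by column, and a run of 3 ONC values is in the order column 3, column 5, column 6 unless it is called a mean. Runs for Ctrl and CKO are in the order of replicates 1, 2 and 3.

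The set was well covered in these libraries. The 10 genes together took 3.27% to 3.33% of the counts in Ctrl, 3.79% to 4.08% in ONC and 3.63% to 3.72% in CKO. Each gene had at least 2078 counts in every library and Pdc reached 495000.

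The promoters of 5 members are shown. Sag, Gnb5 and Guca1a are those that hold a CRX core sequence, and Arr3 and Pdc had the highest and the lowest log2 fold change of the set in ONC against Ctrl. Each is the 250 bases before the RefSeq start of the gene on GRCm38.p6, written 5′ to 3′ on the strand of the gene. For Guca1a this start lies upstream of the one in the gene coordinates given below, which are from GENCODE. Capitals mark TAATCC or its reverse complement GGATTA, the core sequence bound by the photoreceptor factor CRX. The windows lie at chr1:87803430-87803679 (plus strand) for Sag, chrX:100605247-100605496 (plus strand) for Arr3, chr9:75306038-75306287 (plus strand) for Gnb5, chr17:47400607-47400856 (minus strand) for Guca1a and chr1:150319167-150319416 (plus strand) for Pdc.
Sag: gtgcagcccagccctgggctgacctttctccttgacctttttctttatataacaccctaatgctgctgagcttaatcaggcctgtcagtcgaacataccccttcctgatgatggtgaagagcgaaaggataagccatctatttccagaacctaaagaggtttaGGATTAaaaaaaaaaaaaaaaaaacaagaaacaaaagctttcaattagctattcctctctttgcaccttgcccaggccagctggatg
Arr3: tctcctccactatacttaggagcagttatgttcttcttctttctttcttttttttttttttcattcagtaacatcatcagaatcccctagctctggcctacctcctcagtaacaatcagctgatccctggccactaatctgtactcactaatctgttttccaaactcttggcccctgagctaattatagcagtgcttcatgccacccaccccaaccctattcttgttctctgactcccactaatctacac
Gnb5: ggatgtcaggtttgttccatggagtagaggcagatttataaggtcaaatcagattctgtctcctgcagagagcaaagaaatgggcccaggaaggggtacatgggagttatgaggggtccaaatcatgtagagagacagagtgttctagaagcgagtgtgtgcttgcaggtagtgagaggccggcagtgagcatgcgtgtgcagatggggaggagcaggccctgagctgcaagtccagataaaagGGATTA
Guca1a: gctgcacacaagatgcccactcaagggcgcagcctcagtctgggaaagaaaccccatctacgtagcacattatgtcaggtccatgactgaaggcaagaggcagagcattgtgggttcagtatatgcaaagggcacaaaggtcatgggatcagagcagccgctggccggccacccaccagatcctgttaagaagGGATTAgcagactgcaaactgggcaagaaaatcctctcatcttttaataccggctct
Pdc: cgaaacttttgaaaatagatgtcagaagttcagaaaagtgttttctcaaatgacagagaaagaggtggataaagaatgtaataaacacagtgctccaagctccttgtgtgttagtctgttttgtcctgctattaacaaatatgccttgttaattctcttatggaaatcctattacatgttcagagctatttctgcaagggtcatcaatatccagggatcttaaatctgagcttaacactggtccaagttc
Of the 10 genes, 7 had such a window. TAATCC, searched on both strands, was present in 3 of the 7, namely Sag at 87 bases, Guca1a at 57 bases and Gnb5 at 6 bases before the start, and in 6.25% of all 32817 windows of this length. TGCTGA, a sequence bound by the rod factor NRL, was present in 2 of the 7, Sag and Rgs9, and in 16.1% of all windows. In Sag the matches to the 2 motifs did not overlap. A match describes the letters in a window and no more.

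Arrestins were the members furthest above Ctrl after crush. Sag, which encodes rod arrestin (chromosome 1, 87803680 to 87845158, plus strand, GRCm38), was at 5711, 5695 and 5152 CPM in Ctrl, on the TMM scale (scaled by trimmed means of M values) that is used for CPM of single genes. It was at 15592, 13877 and 13677 CPM in ONC, and at 12891, 11643 and 12193 CPM in CKO. All crushed libraries were above all intact ones and the 3 ONC columns were alike. The means were 5519 ± 318, 14382 ± 1053 and 12242 ± 625 CPM (SD, n = 3 each), which is 2.61 times Ctrl in ONC and 2.22 times in CKO. Arr3, which encodes cone arrestin (chromosome X, 100605497 to 100618493, plus strand), was at 233, 270 and 224 CPM in Ctrl, 871, 771 and 787 CPM in ONC, and 677, 691 and 730 CPM in CKO. Its groups did not overlap either, and its means were 3.34 times Ctrl in ONC and 2.89 times in CKO. On the log2 scale ONC exceeded Ctrl by 1.38 ± 0.09 (SE) for Sag and 1.74 ± 0.12 for Arr3. CKO was below ONC by a log2 fold change of -0.23 ± 0.09 for Sag (edgeR adjusted p 0.127) and -0.21 ± 0.11 for Arr3 (edgeR adjusted p 0.244), so neither passed, although for both genes every CKO library lay below every ONC library. Without ONC column 5 both were called, at -0.30 and -0.29. Such fits keep only columns 3 and 6 in ONC, which differed less than libraries within Ctrl or within CKO. Their spread may be partly or wholly technical, which limits every call given here and below without column 5.

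**Figure D1:**
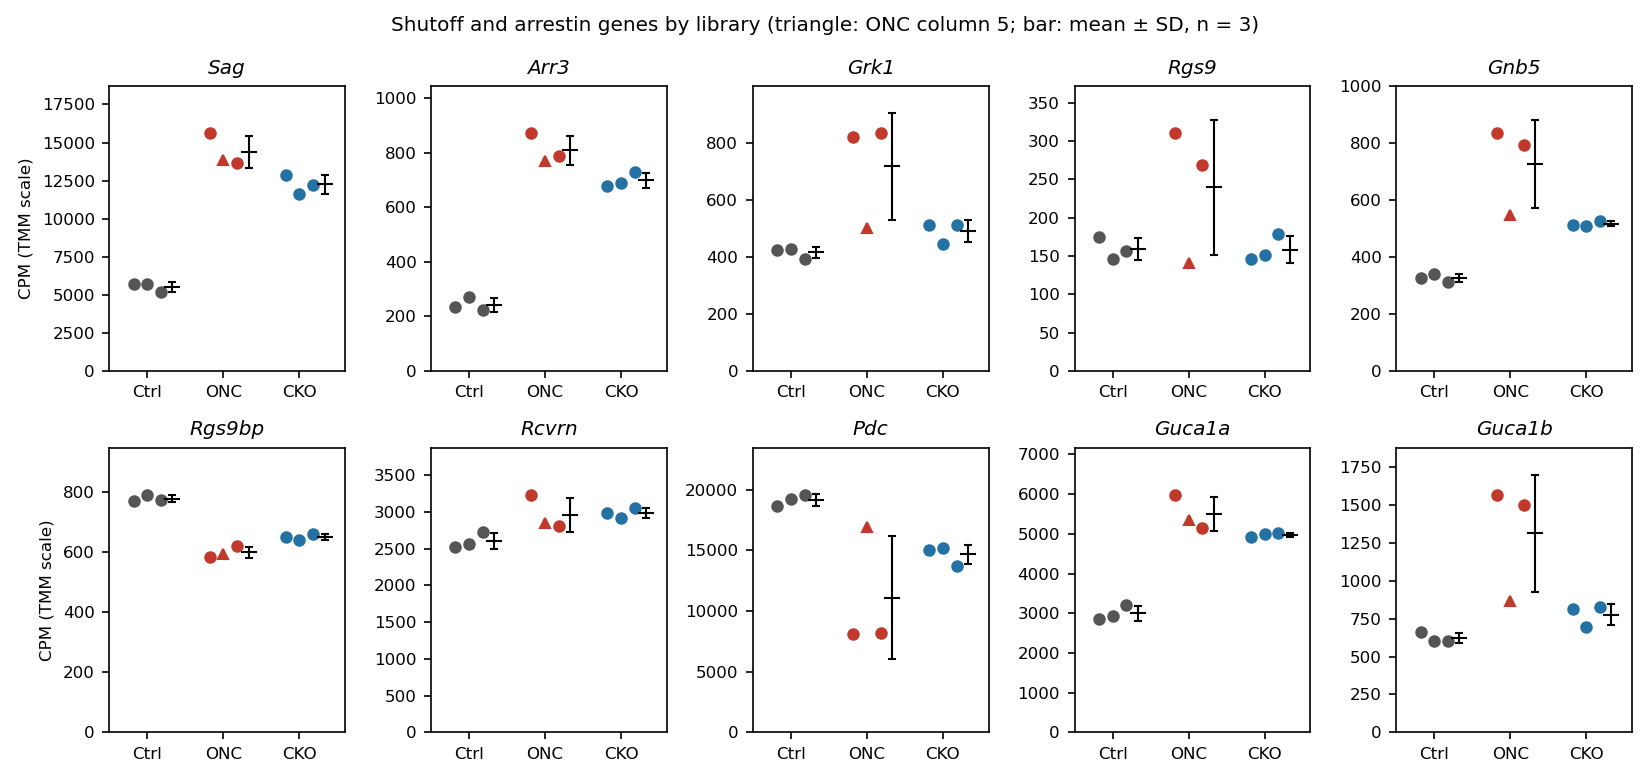
Level of each of the 10 genes in every library, in CPM on the TMM scale; points are libraries, the triangle is ONC column 5, and bars beside them are mean ± SD of 3 libraries. Sag, Arr3 and Guca1a are high in all ONC columns, while Grk1, Rgs9, Gnb5, Guca1b and Pdc place column 5 away from columns 3 and 6.

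The kinase arm was mixed. Grk1, the kinase gene that mouse rods and cones share (chromosome 8, 13405081 to 13421951, plus strand), was at 425, 428 and 394 CPM in Ctrl and 512, 446 and 513 CPM in CKO. In ONC it was at 820, 500 and 833 CPM, so columns 3 and 6 were 1.65 times column 5, and column 5 lay within the CKO range. Its log2 fold change in ONC against Ctrl was 0.79 ± 0.17, but 0.29 and not called with column 5 as the only ONC library. The CKO against ONC value was -0.55 ± 0.17 (edgeR adjusted p 0.0859). Without column 5 that difference was -0.80 and called. Rcvrn, which encodes recoverin (chromosome 11, 67695326 to 67703333, plus strand, inside Glp2r on the other strand), was the steadiest member. It was at 2524, 2555 and 2721 CPM in Ctrl, 3228, 2850 and 2800 CPM in ONC and 2985, 2917 and 3048 CPM in CKO. Crushed libraries were all above intact ones by a narrow margin, with log2 fold changes of 0.19 ± 0.09 in ONC and 0.20 ± 0.09 in CKO against Ctrl. CKO and ONC overlapped (log2 fold change 0.01 ± 0.09, edgeR adjusted p 0.952). Rcvrn was called in ONC against Ctrl only without column 5 (0.27) or after GC and length correction (0.34).

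The 3 genes of the RGS9 complex differed from each other in pattern. Rgs9, the catalytic subunit gene (chromosome 11, 109225355 to 109298129, minus strand), was at 175, 145 and 157 CPM in Ctrl, 310, 141 and 269 CPM in ONC, and 146, 151 and 178 CPM in CKO. Columns 3 and 6 were 2.05 times column 5, which lay below every Ctrl library, so ONC and Ctrl overlapped. The log2 fold change was 0.59 ± 0.23 in ONC against Ctrl and -0.15 with column 5 alone, and it was 0.92 and called without column 5. Between CKO and ONC it was -0.60 ± 0.23 (edgeR adjusted p 0.129), 0.16 with column 5 alone, and -0.91 and called without it. Gnb5, the G protein beta subunit gene that stabilises RGS9 and also partners other RGS proteins in bipolar cells (chromosome 9, 75306288 to 75345876, plus strand), was at 327, 342 and 313 CPM in Ctrl, 835, 549 and 794 CPM in ONC and 514, 511 and 527 CPM in CKO. Every crushed library was above every intact one and column 5 was again the lowest of ONC. Its log2 fold change was 1.15 ± 0.15 in ONC and 0.66 ± 0.15 in CKO against Ctrl, and -0.49 ± 0.15 in CKO against ONC (edgeR adjusted p 0.0794). Without column 5 the last was -0.70 and called. Antisense entries overlap Gnb5, and strand was not shown to be kept in the counting. Rgs9bp, the membrane anchor gene of the complex (chromosome 7, 35578993 to 35585582, minus strand), went the other way. It was at 769, 790 and 774 CPM in Ctrl, 583, 592 and 620 CPM in ONC and 649, 641 and 660 CPM in CKO. The libraries of each group were tight and the 3 groups did not overlap. The log2 fold change was -0.38 ± 0.10 in ONC against Ctrl, a call that 8 of 18 other analyses lost, among them those without Ctrl replicate 1, 2 or 3 (-0.35, -0.32 and -0.34) or without ONC column 3 or 6 (-0.31 and -0.36). CKO was above ONC by 0.12 ± 0.10 (edgeR adjusted p 0.447). The ratio of Gnb5 to Rgs9bp counts was 0.421 in Ctrl and 0.796 in CKO, and 1.43, 0.928 and 1.28 in ONC.

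Pdc, which encodes phosducin (chromosome 1, 150319417 to 150333906, plus strand), was the other member below Ctrl. It was at 18624, 19266 and 19570 CPM in Ctrl, at 8123, 16970 and 8216 CPM in ONC, and at 15076, 15198 and 13732 CPM in CKO. All crushed libraries were below all intact ones, yet column 5 was 2.08 times the mean of columns 3 and 6 and above every CKO library. The log2 fold change was -0.79 ± 0.23 in ONC against Ctrl and -0.15 with column 5 alone. The call of Pdc was kept in 9 of 18 other analyses, and was lost without Ctrl replicate 1, 2 or 3 (-0.77, -0.74 and -0.73) and without ONC column 3 or 6 (-0.56 and -0.57). CKO was above ONC by 0.40 ± 0.23 (edgeR adjusted p 0.269). That difference was 0.80 and called without column 5, and -0.22 with column 5 alone. Pdc overlaps an antisense entry and a second entry on its own strand, so its reads may be shared with them. Sag and Pdc stood at a count ratio of 0.289 ± 0.0225 in Ctrl and 0.836 ± 0.0630 in CKO (SD, n = 3). In ONC the ratio was 1.92, 0.818 and 1.66.

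The cyclase activators differed from each other although the genes lie tail to tail, 1590 bases apart on chromosome 17. Guca1a (47394558 to 47400584, minus strand) was at 2854, 2937 and 3198 CPM in Ctrl, 5980, 5358 and 5157 CPM in ONC and 4925, 4996 and 5021 CPM in CKO. The ONC columns were alike and all crushed libraries were above the intact ones. The log2 fold change was 0.88 ± 0.09 in ONC and 0.73 ± 0.09 in CKO against Ctrl, and -0.14 ± 0.09 in CKO against ONC (edgeR adjusted p 0.341). The last was -0.21 and called without column 5. Guca1b (47385393 to 47392967, plus strand) was at 663, 604 and 600 CPM in Ctrl, 1565, 868 and 1501 CPM in ONC, and 811, 694 and 825 CPM in CKO. Column 5 was just above the CKO libraries and columns 3 and 6 were 1.77 times column 5. The log2 fold change was 1.08 ± 0.19 in ONC against Ctrl and 0.32 ± 0.19 in CKO against Ctrl. The log2 fold change of CKO against ONC was -0.76 ± 0.19 (edgeR adjusted p 0.0611), the nearest of the 10 to the threshold. Without column 5 the difference was -1.03 and called. The ratio of Guca1a to Guca1b was 4.83 in Ctrl, 6.45 in CKO, and 3.82, 6.17 and 3.44 in ONC.

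**Figure D2:**
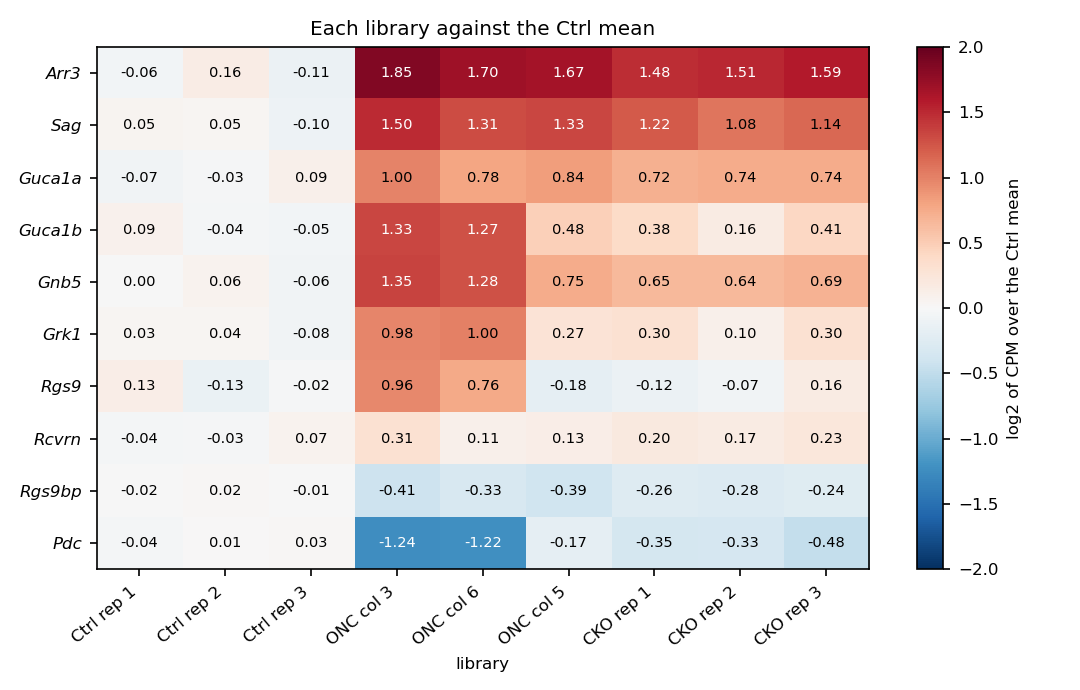
Level of each gene in each library as log2 of its CPM over the Ctrl mean (colour and printed value), with genes in rows and libraries in columns. Sag and Arr3 are above 1 in every crushed library, while Pdc is at -1.24 and -1.22 in ONC columns 3 and 6 and at -0.17 in column 5.

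Counted over the set, 8 of the 10 genes were called in ONC against Ctrl at an edgeR adjusted p under 0.05. Sag, Arr3, Grk1, Gnb5, Guca1a and Guca1b were higher, and Rgs9bp and Pdc were lower. Of all tested genes 25.8% were called, 13.0% higher and 12.8% lower. Since the members were chosen with this contrast known, nothing is read from that count or from its overlaps and median given next. In the same contrast 9 of 10 members had groups that did not overlap (7 higher and 2 lower), beside 39.5% of all genes (18.3% higher and 21.2% lower). The median log2 fold change was 0.83 for the members and -0.04 for all genes. In CKO against Ctrl, which shares the Ctrl libraries, 4 were called higher (Sag, Arr3, Gnb5 and Guca1a) and 0 lower, beside 8.89% of all genes (4.32% higher and 4.58% lower). Members whose groups did not overlap numbered 9 there, 7 higher and 2 lower, beside 35.7% of all genes (17.2% higher and 18.5% lower). The Gnb5 call was lost without Ctrl replicate 1 or 3 or any 1 CKO replicate, with log2 fold changes of 0.64 to 0.68. For CKO against ONC edgeR called 0 of 10, beside 0.865% of all genes (0.587% higher and 0.278% lower). There 5 members had an unadjusted p under 0.05, as did 27.2% of all genes. DESeq2, run on the 23733 genes with any counts, called 3 members (Guca1b, Gnb5 and Grk1) and 9.44% of those genes. Members below ONC in every CKO library were Sag, Arr3, Gnb5, Guca1a and Guca1b, and Rgs9bp was above, beside 26.2% of all genes with groups that did not overlap (13.6% higher and 12.6% lower). Leaving out ONC column 5 raised the members called in CKO against ONC to 8, beside 6049 genes or 36.7% of all tested. With columns 3 and 6 summed instead, no member was called there, beside 0.0122% of all genes. In CKO against Ctrl, leaving out column 5 raised the members called to 9, beside 3524 genes or 21.4%, against 1409 genes (8.89%) with it. The 5 added in CKO against Ctrl were Grk1 (0.25), Rgs9bp (-0.25), Rcvrn (0.21), Pdc (-0.38) and Guca1b (0.33).

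**Figure D3:**
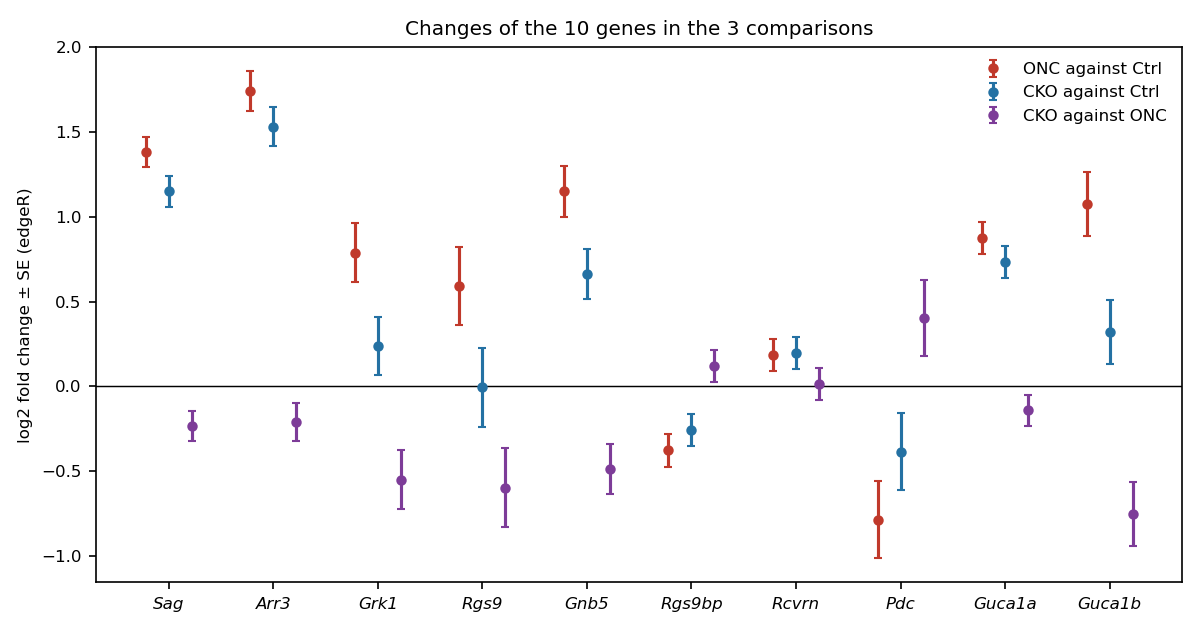
Log2 fold change ± SE (edgeR, vertical axis) of each gene in ONC against Ctrl, CKO against Ctrl and CKO against ONC. Arr3 and Sag are highest against Ctrl at 1.74 and 1.38 in ONC, and Pdc is lowest at -0.79.

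Levels can be set against each other only per length, for which the deposited FPKM values of Ctrl and CKO were used. These values do not follow exon length in GENCODE M21. Sag and Grk1 have exon lengths of 8904 and 8784 bases, yet 5519 and 416 CPM in Ctrl stood beside 3430 and 57.4 FPKM. The orders below hold only under the lengths behind the deposited values. In Ctrl the order was Pdc (17671 ± 327 FPKM), Guca1a (4101 ± 224), Sag (3430 ± 250), Rcvrn (2899 ± 96.9), Guca1b (409 ± 24.7), Gnb5 (221 ± 18.3), Arr3 (209 ± 21.7), Rgs9bp (121 ± 2.57), Rgs9 (67.3 ± 5.72) and Grk1 (57.4 ± 3.26). Gnb5 and Arr3 were within their spread of each other. In CKO Pdc was still first at 13330 ± 797 FPKM, but Sag at 7546 ± 405 came before Guca1a at 6961 ± 42.8. Rcvrn followed at 3353 ± 65.7 and Arr3, at 603 ± 24.9, now stood ahead of Guca1b at 504 ± 47.2 and Gnb5 at 298 ± 18.9. Rgs9 at 65.4 ± 7.30 and Grk1 at 64.9 ± 5.24 did not differ beyond their spread.

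Rod markers were higher after crush, unlike Rgs9bp and Pdc. The summed level of these markers was 30797 to 31671 CPM by library totals in Ctrl, 58865, 41312 and 55695 in ONC, and 39282 to 43992 in CKO. Of the 12 markers, 9 were called higher in ONC against Ctrl. The 10 members together took 4.01%, 4.08% and 3.79% of the counts in ONC, so column 5 was highest for the members and lowest for the rod markers. In bulk samples fewer cells of a type and less RNA per cell cannot be told apart. Set per 1000 rod marker counts, Sag was still higher, at 177 ± 13.5 in Ctrl, 280, 323 and 269 in ONC and 281 ± 11.5 in CKO. Guca1a was at 96.0 ± 4.38 in Ctrl, 107, 125 and 101 in ONC and 115 ± 6.18 in CKO. Grk1 was at 12.4 to 14.0 in Ctrl, 14.7, 11.6 and 16.4 in ONC and 10.9 to 11.6 in CKO. Rgs9 was at 4.76 to 5.60 in Ctrl, 5.57, 3.27 and 5.28 in ONC and 3.30 to 3.93 in CKO. For both Grk1 and Rgs9 column 5 lay below every Ctrl library on this scale, and columns 3 and 6 above the Ctrl mean. Gnb5 was at 9.81 to 11.2 in Ctrl, 15.0, 12.8 and 15.6 in ONC and 11.6 to 12.4 in CKO. Guca1b was at 18.8 to 21.3 in Ctrl, 28.1, 20.2 and 29.5 in ONC and 16.9 to 18.3 in CKO, so its column 5 lay within the Ctrl range. Rgs9bp was at 24.9 ± 0.828 in Ctrl, 10.5, 13.8 and 12.2 in ONC and 14.9 ± 0.587 in CKO. Pdc was at 614 ± 16.8 in Ctrl, 146, 395 and 162 in ONC and 338 ± 33.9 in CKO. Rcvrn, higher after crush in CPM, was lower on this scale, at 83.3 ± 2.21 in Ctrl, 58.0, 66.3 and 55.0 in ONC and 68.6 ± 2.14 in CKO. The 8 cone markers did not move with Arr3. They summed to 4950 to 6146 CPM in Ctrl, 4657 to 5817 in ONC and 5249 to 6136 in CKO, with 1 of 8 called higher. Arr3 per 1000 cone marker counts was 47.7, 44.3 and 43.0 in Ctrl, 189, 127 and 185 in ONC, and 123, 116 and 115 in CKO. Müller glia markers were also higher in ONC, at 763 to 1347 CPM against 630 to 669 in Ctrl, and amacrine markers lower, at 130 to 185 against 384 to 407. The part of these lists in the members' values was not tested.

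**Figure D4:**
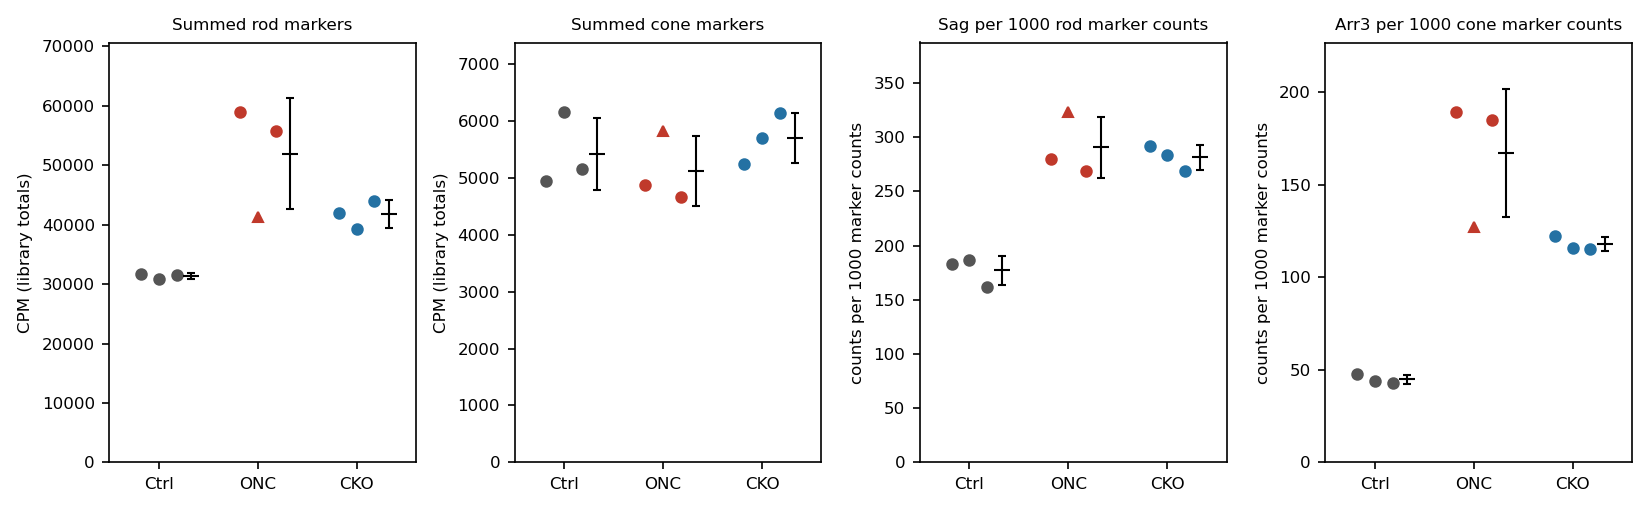
Summed rod and cone markers in CPM by library totals, and Sag per 1000 rod marker counts and Arr3 per 1000 cone marker counts, by library; the triangle is ONC column 5 and bars are mean ± SD of 3. Sag and Arr3 remain above Ctrl after this scaling, with Arr3 at 127 in column 5 against 43.0 to 47.7 in Ctrl.

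GC content differed between the members. Pdc had the lowest GC content of the set, 37.8%, and the lowest log2 fold change in ONC against Ctrl, while Guca1b and Guca1a had the highest GC content at 55.9% and 55.7%. Rcvrn at 53.9% had a log2 fold change of 0.19 and Rgs9bp at 48.7% was at -0.38. Arr3 and Sag, at 49.1% and 49.7%, had the highest log2 fold changes. After a correction for GC content and length, Pdc was at -0.21 and no longer called, and Guca1b was at 0.71 and still called. Sag at 1.38, Arr3 at 1.79 and Guca1a at 1.03 kept their calls under that correction. Pdc was at -0.03 in CKO against ONC after it. Whether GC content has a part in these values was not tested further.

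**Figure D5:**
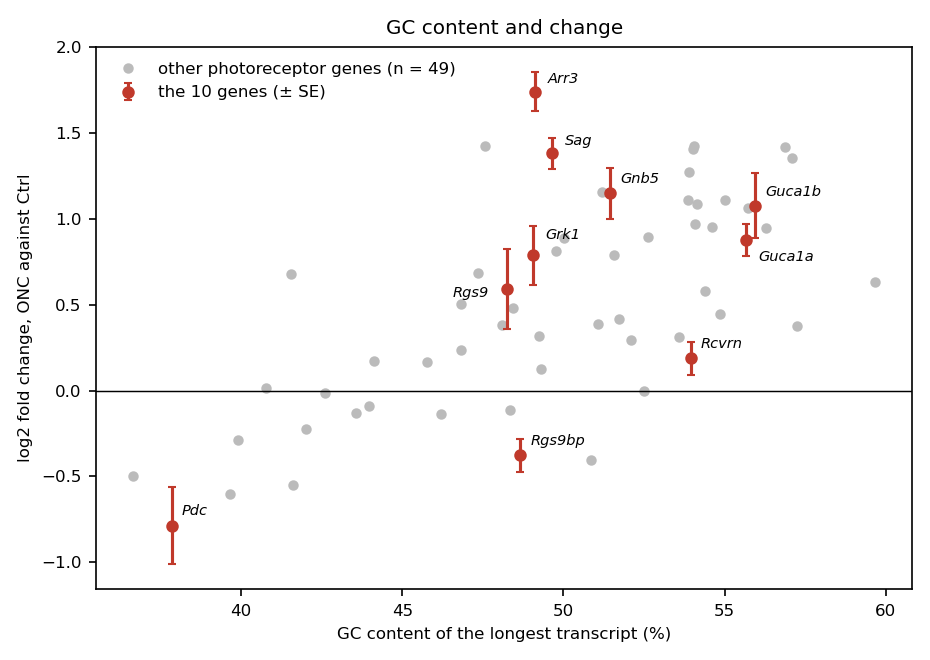
GC content of the longest transcript (horizontal, percent) against log2 fold change in ONC against Ctrl (vertical) for the 10 genes, with SE, and for 49 other photoreceptor genes. Pdc lies lowest, at 37.8% GC, and Arr3 highest.

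Members ranged from close to far apart in profile, measured as the root-mean-square difference of centred log2 CPM over 9 libraries. The closest pairs were Grk1 with Guca1b at 0.127, Gnb5 with Guca1b at 0.177, Grk1 with Rgs9 at 0.181 and Sag with Arr3 at 0.190. The farthest were Pdc with Arr3 at 1.16 and with Sag at 0.994, and non-member genes lay nearer to Sag than any member did. Among 14378 other genes the nearest to Sag were the unnamed assembled locus XLOC_008969 (0.0885), Ppp4c (0.108), Abcf2 (0.115), Samd7 (0.119) and Nrm (0.135). Nearest to Arr3 were Mettl1 (0.147), Ip6k2 (0.157), XLOC_008969 (0.183), Pdpn (0.208) and Rhoc (0.222). Those nearest to Pdc were Cox20 (0.0774), Gin1 (0.0782), Tceal9 (0.0797), Dpm1 (0.0842) and Kantr (0.0844). These are distances over shared libraries, given as a description.

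Most genes of the activation side of the rod cascade were also higher after crush. Bare values in parentheses after a log2 fold change are edgeR adjusted p. Of its 10 genes 7 were called higher and 1 lower in ONC against Ctrl (median log2 fold change 0.59), beside 13.0% and 12.8% of all genes. Gnat1, the rod transducin gene, rose from a mean of 4005 CPM in Ctrl to 9225, 5618 and 8721 CPM in ONC, a log2 fold change of 0.97 (edgeR adjusted p 0.00283). Pde6b, a phosphodiesterase gene, rose by 0.81 (0.00235). Cngb1, a channel subunit gene, rose by 1.11. Gngt1, the rod transducin gamma gene, was the 1 that fell, by a log2 fold change of -0.50 (edgeR adjusted p 0.0133). None of the 10 passed in CKO against ONC, with Gngt1 at 0.45 (edgeR adjusted p 0.0659) and Cngb1 at -0.73 (0.0716), and in CKO against Ctrl 3 were higher and 0 lower. The cone cascade had 2 of 10 called higher and 0 lower in ONC against Ctrl (median -0.04), Gnb3 at 1.42 (edgeR adjusted p 0.00189) and Pde6c at 0.68 (0.00591). Opn1mw, the green cone opsin gene, was at -0.41 and did not pass. In CKO against ONC 0 of 10 passed, with Cngb3 at 0.39 (edgeR adjusted p 0.0892), and in CKO against Ctrl 2 were higher.

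The partners of the cyclase activators were mostly higher after crush. Of 3 genes 2 were called higher and 0 lower in ONC against Ctrl. Gucy2e, a retinal guanylate cyclase gene, rose by 0.89 (edgeR adjusted p 0.00441) and Rd3, which encodes a cyclase inhibitor and trafficking protein, by 1.16 (0.00135), while the second cyclase gene Gucy2f was at -0.22 (0.257). Column 5 was the lowest of ONC for Gucy2e (247, 159 and 256 CPM) and Rd3 (298, 208 and 282 CPM). None passed in CKO against ONC, where Gucy2e was at -0.48 (edgeR adjusted p 0.0986) and Rd3 at -0.42, and 1 was higher in CKO against Ctrl. Of the outer segment and visual cycle genes, 8 of 12 were called higher and 1 lower in ONC against Ctrl (median 0.81). Rbp3 was at 1.06 (edgeR adjusted p 0.00134) and Unc119 at 0.63 (0.00142). In CKO against ONC 0 of 12 passed, with Tulp1 at -1.45 (edgeR adjusted p 0.0507) and Rom1 at -0.76 (0.0606). Tulp1 was at 1408, 441 and 1239 CPM in ONC and 334 to 408 CPM in CKO. Rom1 was at 4903, 2517 and 4231 CPM in ONC and 2216 to 2361 CPM in CKO, so column 5 was near CKO for both. In CKO against Ctrl 5 of the 12 were higher and 1 lower. Photoreceptor transcription factors had 6 of 14 called higher and 1 lower (median 0.43). Samd7, which represses non-rod genes in rods, rose by 1.43 (edgeR adjusted p 0.000406) and the rod factor Nr2e3 by 1.27 (0.00134), with smaller rises of Crx (0.32, 0.0471) and Nrl (0.42, 0.0276). The CKO against ONC comparison had 1 of 14 called lower, Esrrb at -1.08 (edgeR adjusted p 0.0295), Nrl was at -0.47 (0.0636), and in CKO against Ctrl 3 were higher and 2 lower.

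Relatives of the members that are not specific to photoreceptors were counted as well. The non-visual arrestin genes were at 6.73 CPM (Arrb1) and 3.69 CPM (Arrb2) in Ctrl, with log2 fold changes in ONC against Ctrl of -0.27 and 0.37 that did not pass. In their list of 9 with other receptor kinases and phosphatases, 2 were called higher and 0 lower, Grk2 at 1.79 (edgeR adjusted p 0.0103) and Grk6 at 0.88 (0.0158). Grk2 was at 17.4, 5.43 and 16.1 CPM in ONC, and 0 of the 9 were called in either comparison of CKO. Of 6 other R7 RGS complex genes 0 were higher and 1 lower, Gpr158, at -2.40 in ONC against Ctrl (edgeR adjusted p 0.00140) and 1.71 in CKO against ONC (0.0427). Rgs7bp at -0.80 and Gpr179 at 0.11 did not pass in ONC against Ctrl, and 0 of 6 were called in CKO against Ctrl. Of 13 neuronal calcium sensor relatives of recoverin 1 was higher and 6 lower (median -0.65), with Vsnl1 at -2.12 (edgeR adjusted p 0.00134), Kcnip1 at -1.62 (0.00142) and Kcnip3 at -0.92. In CKO against ONC 0 of 13 passed, with Kcnip3 at -0.92 (edgeR adjusted p 0.0816) and Hpcal4 at -0.56 (0.0832), and in CKO against Ctrl 1 was higher and 4 lower. Of 2 tested phosducin-like genes 1 was lower, Pdcl, with means of 97.0, 62.2 and 108 CPM in Ctrl, ONC and CKO, and 59.3, 74.6 and 52.7 CPM in the ONC columns. Pdcl was at -0.64 in ONC against Ctrl (edgeR adjusted p 0.00867) and 0.79 in CKO against ONC (0.0356), and Pdcl3 was at -0.51 in ONC against Ctrl and did not pass. Neither was called in CKO against Ctrl.

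The counts of 0 in these lists can be read beside less strict ones. For CKO against ONC, an unadjusted edgeR p under 0.05 was reached by 5 rod cascade, 1 cone cascade, 2 cyclase, 4 non-visual arrestin and kinase, 5 outer segment and 3 calcium sensor genes, and DESeq2 called 4, 1, 0, 2, 5 and 2 genes of these lists in the same order. Of the 15841 genes tested in edgeR 27.2% had such a p, and DESeq2 called 9.44% of the 23733 genes with any counts. For CKO against Ctrl, the unadjusted count was 2 in the non-visual arrestin and kinase list. It was 1 in the R7 RGS list and 0 in the phosducin-like list, and DESeq2 called 0 in each of these lists. Beside these, 23.9% of the genes tested in edgeR had such a p, and DESeq2 called 9.96% of its 23733 genes.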

How the data were processed

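RNA of sorted cells was amplified to cDNA and made into libraries with a tagmentation kit, per the labels' protocols. Trimming used Trimmomatic 0.36 and the genome builds were GRCm38 and mm10, per the submitters' processing notes. Which aligner and counting tool were used is not given in the sources used here. Each gene and library had an expected count, not normalized, and an FPKM value in the authors' deposited table. ONC FPKM columns, 3 in number, could not be tied to single samples and were not used. Symbols came from GENCODE M21, which matched 21956 of 21970 Ensembl identifiers.

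Expected counts were rounded and fitted in edgeR 4.0.16 (R 4.3.3) with filterByExpr, TMM scaling and 1 quasi-likelihood model over all 9 libraries. The procedure was tested on simulated libraries of equal spread, which does not cover the unequal ONC columns. The call threshold was a Benjamini-Hochberg adjusted p of 0.05 over 15841 genes, with no minimum fold. The members and lists were chosen with earlier results of these data known. The text names all members, 9 set genes, in each list the 2 genes with the lowest p in ONC against Ctrl and in CKO against ONC, and the 5 genes nearest in profile to Sag, Arr3 and Pdc. The result of 1 gene that this rule names is not reported here. Other analyses used DESeq2 1.42.0, other scalings and filters, left-out libraries, columns 3 and 6 summed, column 5 alone, GC and length correction, 2 groups only and a replicate block.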

Additional observations from a re-analysis of the deposited data

How the results depend on the processing

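Percentages in parentheses are shares of all tested genes called in the same setting. Genes tested numbered 15841 in the main fit, 23733 with DESeq2 or no filter and 9298 with the stricter filter. In ONC against Ctrl the members called were 8 (25.8%), and 6 to 10 when 1 library was left out (10.8% to 46.4%). In CKO against ONC they were 0 (0.865%), and 3 with DESeq2 (9.44%). They were 1 with library totals (3.13%), 1 with no filter (3.33%) and 1 with the stricter filter (8.12%). With 1 library left out they were 0 to 8 (0.0121% to 36.7%). In CKO against Ctrl they were 4 (8.89%), 9 with 2 groups only (19.4%) and 3 to 9 with 1 library left out (2.81% to 21.4%). They were 8 with the replicate block (17.7%) and 8 with the replicate block and GC and length correction (18.7%). The replicate numbers of Ctrl and CKO gave correlations of deviations of 0.00208, 0.0149 and 0.00828, so they were not taken as pairs, and ONC had no matching numbers. Library totals moved the median log2 fold change of all genes in CKO against ONC from -0.02 to -0.13, and the calls from 93 higher and 44 lower to 210 higher and 286 lower. With library totals CKO against Ctrl had 538 higher and 909 lower, against 684 and 725.
The values that changed sign were small or turned on column 5, except that Pdc in CKO against ONC also changed sign with GC and length correction. Rgs9 in CKO against Ctrl was -0.01, and 0.00578 with DESeq2 size factors, 0.0130 with DESeq2, 0.0258 with no filter, 0.00404 with columns 3 and 6 summed, 0.0109 with column 5 alone, 0.0522 with GC and length correction, 0.00224 with 2 groups only, 0.000999 with the replicate block, 0.0459 with the block and that correction, and -0.0912 to 0.0893 with 1 library left out. Rcvrn in CKO against ONC was 0.01, and -0.102 with library totals, -0.00665 with no filter, -0.0361 with the stricter filter, -0.0199 with columns summed, -0.0943 with GC and length correction, and -0.0599 to 0.0394 with 1 library left out. With column 5 alone Rgs9 was -0.151 in ONC against Ctrl and 0.162 in CKO against ONC, and Pdc was -0.219 in CKO against ONC. Pdc was -0.0266 there with GC and length correction. The cause was not tested.
Counts over all genes also moved. ONC against Ctrl had 4080 calls, and 1939 with columns 3 and 6 summed, 1165 with column 5 alone and 1783 to 7644 with 1 library left out. CKO against ONC had 137, and 2240 with DESeq2, 496 with library totals, 790 with no filter, 755 with the stricter filter, 2 with columns summed, 9 with column 5 alone, 2 with 2 groups only and 2 to 6049 with 1 library left out. CKO against Ctrl had 1409, and 2364 with DESeq2, 2889 with column 5 alone, 2976 with 2 groups only, 2711 with the replicate block, 2865 with the block and GC and length correction, and 464 to 3524 with 1 library left out. With column 5 alone ONC is a single library that is assumed to vary like the other groups. Of the other analyses' values for single members, 462 kept direction and side of the threshold, 43 passed it newly, 23 lost it and 32 changed sign. For the counts of the gene lists, 390 stayed within 1.5 times and 114 moved further.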
